A study of Mus musculus with 24 samples.

Results

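The RNA of 10 genes that code for the enzymes of serine synthesis, of the folate-bound one-carbon steps fed by serine, and of asparagine synthesis was followed through early differentiation of mouse embryonic stem cells, with and without a treatment aimed at the chromatin reader BRD2. The genes were chosen by name: Phgdh, Psat1 and Psph (serine synthesis), Shmt1 and Shmt2 (transfer of the serine carbon to folate), Mthfd1, Mthfd2, Mthfd1l and Aldh1l2 (interconversion of the folate-bound carbon) and Asns (asparagine). They are 10 of the 35742 genes measured, each was found once by its symbol, and all 10 passed the filter on low values (a mean of at least 1) in every comparison.

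Serine is made from the glycolytic intermediate 3-phosphoglycerate in a short chain of reactions, and its side-chain carbon is then loaded onto tetrahydrofolate. The loaded folate supplies carbon for purines, thymidylate and methionine, through parallel sets of enzymes in the cytosol and in mitochondria. Asparagine synthetase moves an amide group from glutamine to aspartate, and its gene is a textbook target of ATF4, the transcription factor of the amino acid and stress response, as are several genes of the serine and mitochondrial folate steps.

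The cells were mouse embryonic stem (mES) cells of the V6.5 line with a degron on BRD2, which marks a protein for destruction once an auxin is present. Every group, the controls included, received doxycycline (Dox) at 1 µg/ml for 18 h, and the treated groups were then given IAA (indole-3-acetic acid, an auxin) at 500 µM for 24 h. The 4 stages were mES cells, in 2i medium with 15% FBS, LIF, 3 µM CHIR99021, 1 µM PD0325901 and a supplement of non-essential amino acids, and embryoid bodies (EB) on day 2, 3 or 4 (EBd2, EBd3, EBd4), which are aggregates formed in medium without LIF. Each stage had 3 Dox and 3 IAA libraries, which makes 8 groups and 24 libraries. A change from mES to EB is therefore also a change of medium, and stage and medium cannot be told apart. The labels give neither the day on which IAA was added to EB nor whether the libraries of a group were separate cultures, so the p-values measure only the spread between these libraries.

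The stretch just before the RefSeq start of 4 of the genes is shown here because these genes went different ways in the data: Asns, Phgdh and Mthfd2 rose with IAA in mES and EBd2, and Mthfd1 did not. Each is 150 bases, 5′ to 3′ on the gene's own strand (RefSeq, GRCm38.p6). Capitals mark 2 motifs: TGATGNAA, which reads TTNCATCA on the other strand and is the form of the composite element that ATF4 and C/EBP factors bind, and CCAAT, which reads ATTGG on the other strand and is the box bound by NF-Y.
Asns, chr6:7693210-7693359, minus strand: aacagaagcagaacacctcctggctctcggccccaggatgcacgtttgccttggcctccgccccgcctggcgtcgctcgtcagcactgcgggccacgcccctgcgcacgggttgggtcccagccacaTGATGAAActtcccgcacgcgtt
Phgdh, chr3:98339970-98340119, minus strand: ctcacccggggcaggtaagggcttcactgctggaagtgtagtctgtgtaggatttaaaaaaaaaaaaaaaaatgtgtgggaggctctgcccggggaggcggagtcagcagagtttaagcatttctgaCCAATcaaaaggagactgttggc
Mthfd2, chr6:83317605-83317754, minus strand: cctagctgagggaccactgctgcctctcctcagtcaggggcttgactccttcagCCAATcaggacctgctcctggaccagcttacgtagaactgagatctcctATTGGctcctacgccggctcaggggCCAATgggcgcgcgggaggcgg
Mthfd1, chr12:76255082-76255231, plus strand: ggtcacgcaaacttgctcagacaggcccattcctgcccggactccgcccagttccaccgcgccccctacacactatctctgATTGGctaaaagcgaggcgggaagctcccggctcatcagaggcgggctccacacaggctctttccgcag

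Windows from 250 bases before to 50 bases after the start were found for 9 of the 10 genes, all but Aldh1l2. TGATGNAA was present in 3.97% of all 32851 such windows, and among the 9 genes in that of Asns alone. CCAAT was present in 37.4% of all windows and in 6 of the 10 windows of these genes: those of Mthfd1, Mthfd2, Phgdh, Psat1, Psph and Shmt1. Psat1 had a further window, at another start, without it. The E-box CACGTG, found in 7.15% of all windows, was in none of the 9. The CCAAT box lay before genes that rose and before genes that did not. A match of letters is a description of the window and not evidence of binding.

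Recovered reads per library ranged from 7819522 to 15732767, and in EBd4 every IAA library (9007143 to 10598075) was deeper than every Dox library (7941180 to 8120480). Over the 24 pairs of libraries within groups, the chi-square per degree of freedom ranged from 1.11 to 4.90, where 1 is sampling noise. The EBd2 Dox library 3 (4.09 and 3.44 against the other 2) and the EBd4 IAA library 1 (3.40 and 4.90) stood apart from their groups. Brd2 RNA, which does not show whether the protein was lost, did not overlap between Dox and IAA in any stage and was higher with IAA, for example 8034 to 8441 against 4413 to 4606 in mES. The summed level of 5 pluripotency genes (Pou5f1, Sox2, Nanog, Zfp42, Esrrb) was 41988 to 46994 in mES libraries and 10214 to 12594 in EB libraries. All 5 were lower in EB, but not alike. Pou5f1 had means of 9707 in mES Dox and 9083 in EBd2 Dox. Nanog had 9598 and 526, and 4788 in EBd4 Dox. The sum of 5 epiblast and early EB genes (Fgf5, Otx2, Dnmt3b, Mixl1, Eomes) was 550 to 1365 against 17746 to 30162. Fgf5 was at 0 in every mES library. Most of the EB sum was Dnmt3b (mean of 21015 in EBd2 Dox). Eomes was 81.66 to 86.42 in mES Dox, lower in EBd3 Dox (46.83 to 53.43) and higher in EBd4 Dox (385 to 862). Of 7 fibroblast genes (Col1a1, Col1a2, Col3a1, Thy1, Dcn, Lum, Postn), Col3a1, Dcn, Lum and Postn were at 0 in every mES library. The others were not all at 0 there: Thy1 held 12.8 to 45.3, Col1a1 2.26 to 7.43 and Col1a2 0 to 1.76. In such bulk RNA, fewer cells of a type and less RNA per cell cannot be told apart.

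Levels are counts divided by the authors' size factor of each library (normalized counts), given as mean ± SD over the 3 libraries of a group. Changes are log2 fold changes ± SE from limma on log2 of the normalized count plus 1, a scale that slightly understates the change of the lowest gene, Aldh1l2. "Rose" and "fell" mean a Benjamini-Hochberg adjusted p below 0.05 over all genes tested in that comparison.

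With IAA, part of the set rose in mES and most of it in EBd2, while in EBd3 and EBd4 the calls were falls. In mES, 4 of the 10 genes rose (Phgdh, Shmt2, Mthfd2, Asns) and 3 fell (Mthfd1, Mthfd1l, Aldh1l2), where 17.3% of the 20865 genes tested rose and 20.1% fell (37.5% in all). In EBd2, 7 of 10 rose and 0 fell, where 13.4% of all genes rose and 16.7% fell (30.1% in all). In EBd3, 0 rose and 2 fell (Mthfd1l, Aldh1l2), against 4.22% and 6.32% of all genes (10.5% in all). In EBd4, 0 rose and 4 fell (Shmt1, Mthfd1, Mthfd1l, Aldh1l2), against 4.69% and 5.57% (10.3% in all).

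The median log2 fold change of the 10 genes was 0.02 in mES, 0.45 in EBd2, -0.02 in EBd3 and -0.10 in EBd4, and that of all genes was -0.01, -0.04, -0.01 and -0.01. The 3 counts of 0 (falls in EBd2, rises in EBd3 and in EBd4) were also 0 at an unadjusted limma p below 0.05, with edgeR and with DESeq2. In the authors' deposited tables the adjusted p was below 0.05 for 7 of the 10 genes in mES, 7 in EBd2, 1 in EBd3 and 4 in EBd4, and 0 of them had an absolute log2 fold change above 1 in any stage. The shares of all genes past these limits in the authors' results are not given here. The limma shares above do not apply to them, so these counts stand without a background.

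**Figure D1:**
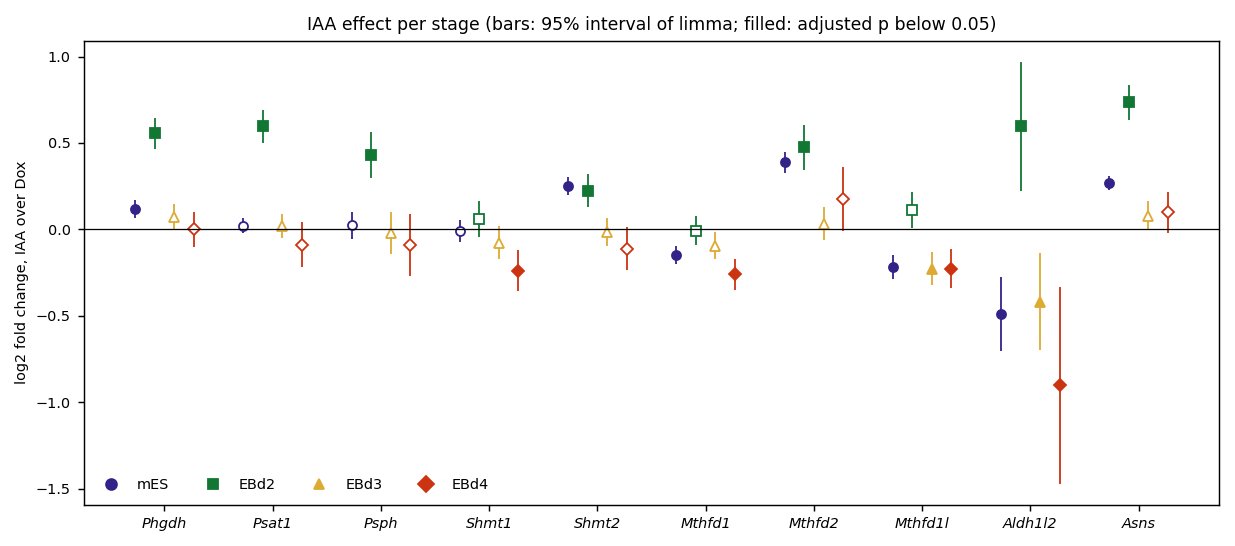
Log2 fold change of IAA over Dox (vertical axis) for the 10 genes at the 4 stages, with 95% intervals from limma; filled symbols have an adjusted p below 0.05. The EBd2 squares lie highest for 9 of the 10 genes, all but Shmt2, up to 0.73 for Asns, and the EBd3 and EBd4 symbols lie near or below 0.

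Asns (ENSMUSG00000029752, chromosome 6, 7675169 to 7693254, minus strand, mm10) ranged from a mean of 1547 in EBd2 Dox to 10935 in mES IAA. In mES the 3 Dox libraries held 9023, 8994 and 9228 normalized counts and the 3 IAA libraries 11122, 10825 and 10858. In EBd2 they held 1494, 1514 and 1632 with Dox and 2595, 2502 and 2618 with IAA. The groups did not overlap in either stage, and every EBd2 library was far below every mES library.

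The IAA effect on Asns was a rise by 20.4% in mES (log2 0.27 ± 0.02, limma adjusted p = 3.8e-14) and by 66.3% in EBd2 (0.73 ± 0.05, limma adjusted p = 5.8e-10). The difference between these effects was 0.47 ± 0.07 (limma interaction, adjusted p = 2.4e-06). In EBd3 the level was 3274 ± 128 with Dox and 3458 ± 158 with IAA, and in EBd4 2808 ± 140 and 3009.7 ± 235. The libraries overlapped in both of these stages, and the values of 0.08 ± 0.04 and 0.10 ± 0.06 did not pass (limma adjusted p = 0.26 and 0.32), with 95% intervals from -0.01 to 0.16 and from -0.02 to 0.22. Asns also had the largest change of the 10 genes from mES to EBd2 in the Dox libraries: it fell by 2.55 ± 0.04 on the log2 scale, then rose by 1.08 ± 0.04 to EBd3 and fell by 0.22 ± 0.04 to EBd4.

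**Figure D2:**
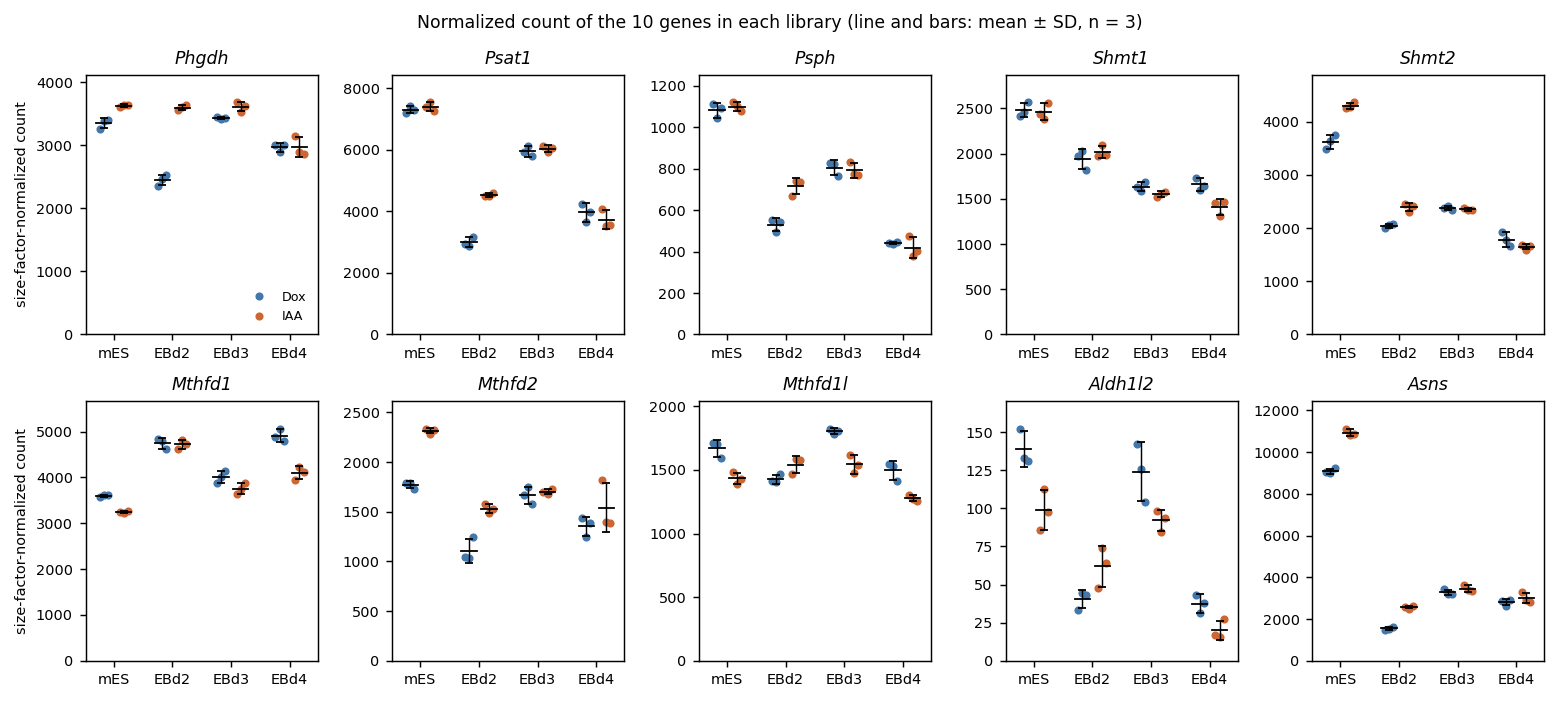
Size-factor-normalized count (vertical axis, from 0) of each of the 10 genes in every library at the 4 stages, Dox in blue and IAA in orange; lines and bars are the mean ± SD of 3 libraries. Asns drops from 9082 in mES Dox to 1547 in EBd2 Dox, and the EBd2 Dox points of Phgdh, Psat1 and Mthfd2 are the lowest of their panels.

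The 3 enzymes of serine synthesis act in sequence: Phgdh (chromosome 3, 98313170 to 98339990) oxidises 3-phosphoglycerate, Psat1 (chromosome 19, 15904678 to 15947337) adds the amino group from glutamate, and Psph (chromosome 5, 129765558 to 129787449) removes the phosphate. All 3 rose with IAA in EBd2. Phgdh held 2353, 2469.7 and 2519.8 normalized counts with Dox and 3551, 3600.3 and 3635 with IAA. Psat1 held 2940.5, 2856 and 3179 with Dox and 4489.9, 4489.8 and 4589.8 with IAA. The IAA libraries of both genes lay above all their Dox libraries, with the 3 IAA values closer together than the 3 Dox values. Psph, the lowest of the 3 per kb of exon, held 554, 495 and 543 with Dox and 670.2, 742 and 734 with IAA, again without overlap.

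The EBd2 changes were 46.9% for Phgdh (log2 0.56 ± 0.04, limma adjusted p = 6.7e-09), 51.3% for Psat1 (0.60 ± 0.05, limma adjusted p = 4.4e-09) and 34.8% for Psph (0.43 ± 0.06, limma adjusted p = 2.8e-05). In mES only Phgdh of the 3 rose, from 3348 ± 79.8 to 3626 ± 18.2 (0.12 ± 0.03, limma adjusted p = 3.7e-04). Psat1 stood at 7296 ± 114 and 7399 ± 133 in mES (0.02 ± 0.02) and Psph at 1083 ± 35.9 and 1101 ± 20.2 (0.02 ± 0.04), with overlapping libraries. The effect in EBd2 exceeded that in mES for each: by 0.44 ± 0.05 for Phgdh, 0.58 ± 0.07 for Psat1 and 0.41 ± 0.09 for Psph (limma interaction, adjusted p = 1.2e-07, 8.0e-08 and 0.0013).

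In EBd3 and EBd4 none of the 3 serine synthesis genes passed, and the largest absolute value was -0.09 ± 0.08 for Psph in EBd4. The EBd4 interval of Psph reached from -0.27 to 0.09, so a fall down to -0.27 was not excluded there. The EBd3 intervals were narrower, for Psat1 from -0.05 to 0.09. Phgdh was steadier over the stages than the other 2. Among its 8 group means, those of mES IAA (3626), EBd3 IAA (3610.2) and EBd2 IAA (3595) came first and their libraries overlapped, and EBd2 Dox (2447) came last, below every library of the next group.

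Serine hydroxymethyltransferase splits serine into glycine and a folate-bound carbon. Shmt1 (chromosome 11, 60788104 to 60811718) codes for the cytosolic enzyme and Shmt2 (chromosome 10, 127517123 to 127522444) for the mitochondrial one. Shmt2 held 3483, 3634 and 3742 normalized counts in mES with Dox and 4259, 4279.8 and 4365 with IAA, with no overlap. In EBd2 it held 2006, 2055 and 2073 with Dox and 2452, 2308 and 2410.2 with IAA, again without overlap. It rose by 0.25 ± 0.03 in mES (limma adjusted p = 4.5e-10) and by 0.22 ± 0.05 in EBd2 (limma adjusted p = 7.2e-04), and the 2 effects differed by -0.02 ± 0.06 (95% interval -0.15 to 0.10).

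Shmt1 stood at 2481 ± 77.0 and 2463 ± 92.2 in mES (-0.01 ± 0.03) and at 1939 ± 109 and 2019.9 ± 64.2 in EBd2 (0.06 ± 0.05), and passed in neither. In EBd4 the Dox libraries were all the higher: Shmt1 held 1732, 1599.9 and 1644 with Dox and 1452, 1306 and 1464 with IAA. It fell there by 0.24 ± 0.06 on the log2 scale (limma adjusted p = 0.015). That call was lost when EBd4 IAA library 2, Dox library 1 or Dox library 2 was left out (adjusted p = 0.10, 0.10 and 0.054). Shmt2 in EBd4 was -0.11 ± 0.06 (limma adjusted p = 0.26), with overlapping libraries, and its effect in EBd4 was below that in mES by 0.36 ± 0.06 (limma interaction, adjusted p = 4.2e-05).

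The trifunctional Mthfd1 (chromosome 12, 76255298 to 76319803) handles the folate-bound carbon in the cytosol, and it was the exception among the 10 in the course of differentiation. It held 3569, 3606 and 3612 normalized counts in mES with Dox. The EB libraries with Dox held 4832, 4801 and 4612 on day 2, then 3885, 4012 and 4130.2 on day 3, and last 4889, 5062 and 4784 on day 4. Every EB library with Dox was above every mES library with Dox, where Asns, Psat1, Psph, Shmt1 and Shmt2 were below. With IAA, Mthfd1 fell in mES, from 3596 ± 23.1 to 3246 ± 12.8 (-0.15 ± 0.03, limma adjusted p = 7.6e-06), and in EBd4, to 3953, 4237 and 4112 (-0.26 ± 0.04, limma adjusted p = 0.0014), with no overlap in either stage. In EBd2 it stood at 4748 ± 119 and 4726 ± 98.3 (-0.01 ± 0.04), and in EBd3 at 4009 ± 123 and 3752 ± 119 (-0.10 ± 0.04, limma adjusted p = 0.11). Of the 4 falls in EBd4, that of Mthfd1 alone was called whichever library was left out.

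Mthfd2 (chromosome 6, 83305691 to 83325908), the mitochondrial methylene-tetrahydrofolate dehydrogenase and cyclohydrolase, went the other way. It held 1792, 1789 and 1728 normalized counts in mES with Dox and 2336, 2287 and 2328 with IAA. In EBd2 it held 1046, 1031 and 1242 with Dox and 1576, 1489 and 1531 with IAA. No IAA library overlapped with a Dox library in these stages, and Dox library 3 of EBd2, one that stood apart, was nearest to the IAA libraries. Mthfd2 rose by 30.9% in mES (0.39 ± 0.03, limma adjusted p = 1.9e-13) and by 39.0% in EBd2 (0.47 ± 0.06, limma adjusted p = 6.0e-06), and by 0.56 ± 0.05 in EBd2 without Dox library 3.

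In EBd4 the IAA libraries of Mthfd2 held 1824, 1401 and 1391 normalized counts against 1433, 1245 and 1384 with Dox. The first of them, the library that stood apart, was high and the other 2 lay within the Dox range. The value was 0.18 ± 0.09 (limma adjusted p = 0.24), and 0.05 ± 0.06 without that library. In EBd3 Mthfd2 stood at 1664 ± 88.6 and 1702 ± 27.3 (0.03 ± 0.05).

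Mthfd1l (chromosome 10, 3973118 to 4167081), whose product releases formate from folate in mitochondria, fell with IAA in 3 stages. It held 1710.4, 1701 and 1595 normalized counts with Dox in mES and 1480.1, 1393 and 1428 with IAA. In EBd3 it held 1824, 1782 and 1809 with Dox and 1615, 1474 and 1538 with IAA. All IAA libraries were below all Dox libraries in both stages, and also in EBd4 (1275.5 ± 23.2 against 1495 ± 74.3). The falls were 0.22 ± 0.03, 0.23 ± 0.05 and 0.23 ± 0.05 on the log2 scale (limma adjusted p = 2.5e-06, 0.0015 and 0.013), so 2 mitochondrial folate genes, Mthfd1l and Mthfd2, went opposite ways in mES.

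The EBd4 call of Mthfd1l was lost without IAA library 2, Dox library 1 or Dox library 2 (limma adjusted p = 0.064, 0.085 and 0.088). In EBd2 the IAA libraries of Mthfd1l (1467.5 to 1583) lay just above those with Dox (1404 to 1467.0), and the value of 0.11 ± 0.05 did not pass (limma adjusted p = 0.10). It passed with TMM scaling (0.047), with edgeR (0.028) and without Dox library 3 (0.033).

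Aldh1l2 (chromosome 10, 83487450 to 83534140), which oxidises formyl-tetrahydrofolate to carbon dioxide in mitochondria, was the lowest of the 10 by far and the most variable. It held 152, 133 and 131 normalized counts in mES with Dox and 86.0, 113 and 97.9 with IAA. In EBd2 it held 33.5, 44.4 and 43.1 with Dox and 47.7, 74.0 and 64.3 with IAA. In EBd4 it held 43.3, 31.1 and 37.8 with Dox and 17.1, 15.7 and 27.1 with IAA. The groups did not overlap in these stages, nor in EBd3 (124 ± 19.3 against 92.0 ± 6.9), but the gaps were narrow beside the spread.

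Aldh1l2 fell in mES by 0.49 ± 0.11 (limma adjusted p = 2.2e-04), a call kept under all 13 alternatives that were run. It rose in EBd2 by 0.60 ± 0.18 (limma adjusted p = 0.015) and fell in EBd3 by 0.42 ± 0.14 (0.049) and in EBd4 by 0.90 ± 0.27 (0.043), and these 3 calls held under 9, 4 and 5 of 13 alternatives. The EBd2 call was lost with DESeq2, refitted here on recovered reads of the stage, and without IAA library 2, IAA library 3 or Dox library 1. The EBd3 call was lost with a constant of 0.25 under the log, TMM scaling, DESeq2 or the joint fit of all stages, and without any one of IAA libraries 1, 2 and 3 and Dox libraries 1 and 2, and the EBd4 call, among others, with DESeq2, without the filter on low values, and without any one of IAA libraries 1 and 2 and Dox libraries 1, 2 and 3. The log2 value kept its sign under the alternatives of each stage, ranging from 0.46 to 0.77 (EBd2), -0.54 to -0.31 (EBd3) and -1.13 to -0.76 (EBd4). The adjusted p that the authors deposited from DESeq2 for Aldh1l2 was 0.018 in mES, 0.011 in EBd2, 0.11 in EBd3 and 0.010 in EBd4. By those values the EBd2 and EBd4 calls were kept and the EBd3 call was not.

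Per kb of exon, the only scale on which levels of different genes are set side by side here, Asns led in mES Dox with 3321 ± 46.5, followed by Psat1 (1715 ± 26.9), Phgdh (1347 ± 32.1) and Shmt2 (1164 ± 41.8). Mthfd1 followed with 809 ± 5.2 and Shmt1 with 639 ± 19.8, then Mthfd2 (508 ± 10.3), Mthfd1l (376 ± 14.5), Psph (250.3 ± 8.3) and Aldh1l2 (18.5 ± 1.6). In EBd4 Dox the order was another: Phgdh had 1192 ± 27.9, Mthfd1 1106 ± 31.7 and Asns 1027 ± 51.2, and the libraries of these 3 genes did not overlap. The length used joins all annotated exons of a gene, not those of the transcript expressed. Small steps between genes therefore depend on that choice, and the lack of overlap concerns only the spread between libraries.

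Some reads may not be assignable with certainty, because it is not given in the sources used here whether reads were counted by strand. On the opposite strand, the antisense gene Gm34868 shares 19090 bases of the Mthfd1 span, Gm47526 shares 331 and Gm47525 shares 37. Shmt1 overlaps the end of Smcr8 by 184 bases and Gm24945 by 126, and Aldh1l2 overlaps D10Wsu102e by 1056 bases. Psat1 overlaps the pseudogene Gm3329 by 556 bases, Psph overlaps Cct6a by 452, and Shmt2 overlaps Ndufa4l2 by 32. These are overlaps of whole gene spans, introns included, and overlap of exons was not measured. If strand was not used, reads from such pairs cannot be told apart where their exons overlap. On the same strand, where counting by strand would not separate them, Mthfd2 shares 2799 bases of its span with Gm43890. Mthfd1l shares 444 bases with the pseudogene Gm16074 and 157 with Gm25515. The counts of Mthfd2 and Mthfd1l may be uncertain in that respect.

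In the Dox libraries the set dipped on day 2 of EB culture. From mES to EBd2, 9 of 10 genes fell and Mthfd1 alone rose, where 29.1% of the 22141 genes fell and 35.0% rose (64.1% in all). From EBd2 to EBd3, 8 of 10 rose and 2 fell (Shmt1 and Mthfd1), where 22.0% of all genes rose and 24.4% fell (46.4% in all). From EBd3 to EBd4, 8 of 10 fell and Mthfd1 rose, where 17.6% fell and 16.1% rose (33.7% in all).

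The median of the 10 genes over these steps was -0.75, 0.54 and -0.29 on the log2 scale, and that of all genes 0.07, -0.04 and -0.01. Psat1 had the signs of these medians with larger values: it fell by 1.29 ± 0.05, rose by 0.99 ± 0.05 and fell by 0.59 ± 0.05. Aldh1l2 had values of -1.76 ± 0.16, 1.60 ± 0.16 and -1.70 ± 0.16, the largest of the 10 in the last 2 steps. Shmt1 was lower in EBd2 (-0.36 ± 0.05) and again in EBd3 (-0.24 ± 0.05), and from EBd3 to EBd4 its value was 0.02 ± 0.05, with overlapping libraries. Mthfd1 rose by 0.40 ± 0.03, fell by 0.24 ± 0.03 and rose by 0.29 ± 0.03, opposite in sign to most others.

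**Figure D3:**
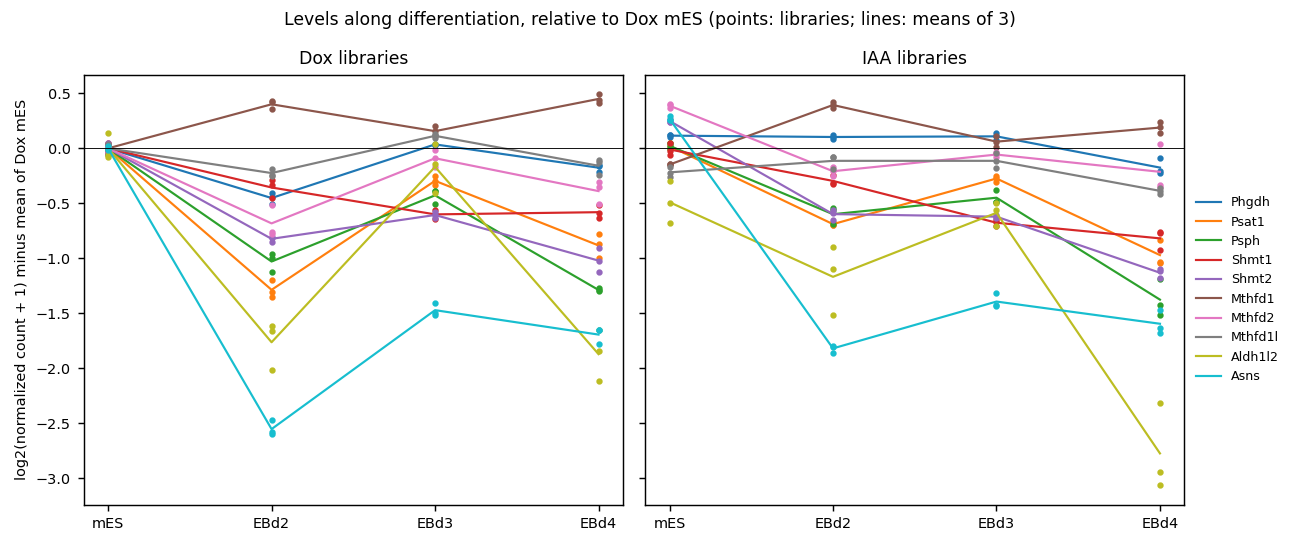
Log2(normalized count + 1) relative to the mean of Dox mES (vertical axis) at the 4 stages, in Dox libraries (left) and IAA libraries (right); points are libraries and lines join means of 3. In the Dox panel most lines dip at EBd2, Asns to -2.55, and Mthfd1 alone stands above 0 at every EB stage.

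The 3 EBd2 Dox libraries enter the step from mES, the step to EBd3 and the IAA effect in EBd2, so these comparisons are not independent, and their values stand side by side. With IAA, EBd2 levels stood between those of EBd2 Dox and EBd3 Dox for Asns (1547, 2572 and 3274 normalized counts in EBd2 Dox, EBd2 IAA and EBd3 Dox), Psat1 (2992, 4523 and 5945), Psph (531, 715 and 806), Mthfd2 (1106, 1532 and 1664) and Aldh1l2 (40.3, 62.0 and 124). For Phgdh (2447, 3595 and 3431) and Shmt2 (2045, 2390.2 and 2376) the EBd2 IAA mean was the highest of the 3, and for Shmt2 the EBd2 IAA and EBd3 Dox libraries overlapped.

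Other measures also differed between EBd2 Dox and EBd2 IAA. The mitochondrial share of reads was 0.831% to 0.892% with Dox and 0.959% to 1.03% with IAA. For single marker genes the log2 change with IAA is given in parentheses. Of the 5 pluripotency genes, Sox2 rose (0.67) and Nanog (-1.02) and Esrrb (-1.10) fell, while their sum, most of it Pou5f1, overlapped (11689 to 12459 against 11980.2 to 12594). Of the 5 epiblast and early EB genes, Dnmt3b (0.42) and Fgf5 (0.74) rose and the others did not pass (Otx2 0.16, Mixl1 -0.37, Eomes -0.35). Their sum was 21743 to 22686 against 28507 to 30162, most of it Dnmt3b (means of 21015 and 28118). Of the 7 fibroblast genes, Col3a1 (-2.03), Thy1 (-0.50) and Dcn (-1.98) fell, and the sum was 169 to 215 against 107 to 117. Lum and Postn were at 0 with IAA and at most 0.95 with Dox. Of 5 primitive endoderm genes (Gata6, Gata4, Sox17, Sox7, Foxa2), Gata4 rose (0.40). The others did not pass (Gata6 -0.97, Sox17 -0.20, Sox7 0.07, Foxa2 0.09). The sum was 107 to 125 against 131 to 146, most of it Gata4 (means of 90.0 and 119). The part of these measures in the rise of the 7 genes was not tested. Without Dox library 3, which stood apart, 8 of the 10 genes rose in EBd2 (Mthfd1l being the eighth), with 0.77 ± 0.04 for Asns and 0.64 ± 0.04 for Psat1. Over the 6 fits that left out 1 EBd2 library, genes called in all, either way, numbered 5090 to 7248, against 6638 in the full fit.

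Whether the IAA effect differed between stages was tested in a fit of all 24 libraries. Against mES, the effect in EBd2 was higher for 7 of 10 genes and lower for 0, where 9.73% of the 22019 genes tested were higher and 6.61% lower (16.3% in all). These 7 were the 3 serine synthesis genes, Asns (above), Mthfd1l (by 0.33 ± 0.06), Aldh1l2 (by 1.09 ± 0.26) and Mthfd1 (by 0.14 ± 0.05, limma adjusted p = 0.048). The Mthfd1 difference was lost without the filter on low values (adjusted p = 0.068) and in 10 of 12 fits that left out 1 library. Shmt2 and Mthfd2, which rose in both stages, showed differences of -0.02 ± 0.06 and 0.09 ± 0.10, with 95% intervals from -0.15 to 0.10 and from -0.12 to 0.29.

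The effect in EBd3 was lower than in mES for 2 genes and higher for 0, against 4.52% and 7.15% of all genes (11.7% in all): Shmt2 by -0.26 ± 0.06 and Mthfd2 by -0.35 ± 0.10 (limma interaction, adjusted p = 0.0024 and 0.016). Without EBd3 Dox library 2, 1 gene was left. The effect in EBd4 was lower for 2 genes, Shmt1 (-0.23 ± 0.07) and Shmt2 (-0.36 ± 0.06), and higher for 0, against 7.08% and 9.68% (16.8% in all). Without EBd4 IAA library 1, which stood apart, 6 genes were lower: Asns, Mthfd2, Phgdh and Psat1 joined (limma interaction, adjusted p = 0.0066, 0.0029, 0.027 and 0.045). Without EBd4 IAA library 2, EBd4 Dox library 1 or mES IAA library 3, 1 gene was left. Over the 12 fits that left out 1 library, genes called in all, either way, numbered 3042 to 3778, against 3690 in the full fit. The share of all genes that was lower in each such fit is not given here.

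The effect in EBd3 was also set against that in EBd2, a comparison chosen after these values were seen. It was lower for 8 of 10 genes, all but Shmt1 and Mthfd1, and higher for 0, against 4.29% and 2.92% of all genes (7.22% in all). The differences ranged from -0.24 ± 0.06 for Shmt2 to -1.01 ± 0.26 for Aldh1l2, with -0.66 ± 0.07 for Asns and -0.58 ± 0.07 for Psat1. That of Aldh1l2 was lost without EBd3 Dox library 1, EBd2 IAA library 2 or EBd2 Dox library 1 (limma interaction, adjusted p = 0.051, 0.055 and 0.052). The zeros for each of these 4 differences were also 0 at an unadjusted limma p below 0.05, with edgeR and with DESeq2.

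In EBd4 the 4 falls stood beside other differences between the groups. IAA libraries were deeper (above). Of the 5 pluripotency genes, Pou5f1 (-0.29) and Nanog (-0.33) fell and Sox2 (0.59), Zfp42 (0.70) and Esrrb (0.76) rose, while their sum was 11494 to 12292 with Dox and 10214 to 10746 with IAA. Of the 5 epiblast and early EB genes, Fgf5 (-0.67) and Eomes (-1.74) fell and the others did not pass (Dnmt3b -0.14, Otx2 0.18, Mixl1 -1.83). Their sum, most of it Dnmt3b, was 19111 to 21322 against 17746 to 18720. Of the 5 primitive endoderm genes, Foxa2 fell (-3.07), Sox17 was at 0 with IAA and at most 2.52 with Dox, and the sum was 262 to 381 against 181 to 220.4. Of the 7 fibroblast genes, Col1a2 fell (-1.07), and the sums overlapped (232 to 402 against 367 to 536). Their part in the falls was not tested. Without IAA library 2, Dox library 1 or Dox library 2, 1 gene fell in EBd4, Mthfd1, and 887, 776 and 837 genes were called in all instead of 2173.

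In mES and EBd3 some of these measures also moved with IAA. In mES the pluripotency sum was 41988 to 42814 with Dox and 45510.1 to 46994 with IAA, with rises of Pou5f1, Nanog, Zfp42 and Esrrb (0.06 to 0.29) and a fall of Sox2 (-0.075). The epiblast and early EB sum was 1241 to 1365 against 550 to 605, with falls of Dnmt3b (-1.71, means of 1047 and 320.3) and Eomes (-0.39) and a rise of Otx2 (0.21). The fibroblast sum was 46.0 to 50.2 against 15.1 to 32.6, with a fall of Thy1 (-1.15). The primitive endoderm sum was 84.6 to 90.3 against 96.0 to 97.7, with no member past the test. Most of that sum was Gata4 (means of 80.7 and 86.4). In EBd3 the mitochondrial share was 1.14% to 1.19% with Dox and 1.25% to 1.26% with IAA, and the primitive endoderm sum was 122 to 158 against 164 to 188, with no member past the test. Gata4 again made up most of it (means of 129 and 160), and the other members differed in sign (Gata6 0.24, Sox17 -0.61, Sox7 -0.003, Foxa2 -0.22). Sox2 rose (0.22) and Nanog (-0.49) and Dcn (-1.48) fell there. Their part in the results was not tested.

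Ratios within a library compare the mitochondrial with the cytosolic enzyme of a step on the per-kb scale and do not depend on the size factor. Mthfd2 over Mthfd1 was 0.640, 0.632 and 0.610 in mES Dox and 0.916, 0.901 and 0.911 in mES IAA. It was 0.276, 0.274 and 0.343 in EBd2 Dox and 0.434, 0.394 and 0.412 in EBd2 IAA. In EBd3 the means were 0.529 ± 0.038 and 0.578 ± 0.016, and the highest Dox library (0.556) was close to the lowest IAA library (0.568). The EBd3 difference was 0.13 on the log2 scale, and 0.069 without Dox library 3. In EBd4 the ratio was 0.373, 0.313 and 0.368 with Dox and 0.588, 0.421 and 0.431 with IAA, and IAA library 1, which stood apart, was the highest. The EBd4 difference was 0.44 on the log2 scale, and 0.28 without that library. All IAA libraries were above all Dox libraries in each of the 4 stages. Mthfd2 rose in mES and EBd2, Mthfd1 fell in mES and EBd4, and neither passed in EBd3. Mthfd1l over Mthfd1, another mitochondrial to cytosolic ratio, did not go the same way. Its means with Dox and IAA were 0.465 and 0.442 in mES and 0.301 and 0.327 in EBd2. They were 0.451 and 0.412 in EBd3 and 0.305 and 0.312 in EBd4. The libraries overlapped in every stage, and this ratio was not tested.

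Shmt2 over Shmt1 in mES was 1.82 ± 0.02 with Dox and 2.18 ± 0.06 with IAA. Its EBd4 values were 1.34 ± 0.07 with Dox and 1.47 ± 0.05 with IAA, a log2 difference of 0.13, and of 0.081 without Dox library 3. The libraries did not overlap in these stages and did in the other two. Asns over Phgdh, which relates the asparagine to the serine branch, was 2.47 ± 0.05 in mES Dox and 2.74 ± 0.05 in mES IAA. On day 2 of EB culture it was 0.574 ± 0.016 with Dox and 0.650 ± 0.017 with IAA, on day 3 it was 0.867 ± 0.030 and 0.870 ± 0.028, and on day 4 it was 0.861 ± 0.023 and 0.921 ± 0.023. Asns over Phgdh overlapped on day 3 alone. Exact two-sided permutation tests of the 12 ratio comparisons gave p = 0.1 for the 9 without overlap, the smallest that 3 against 3 libraries allow, and 0.13 after Benjamini-Hochberg adjustment. None can pass 0.05 in this design.

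**Figure D4:**
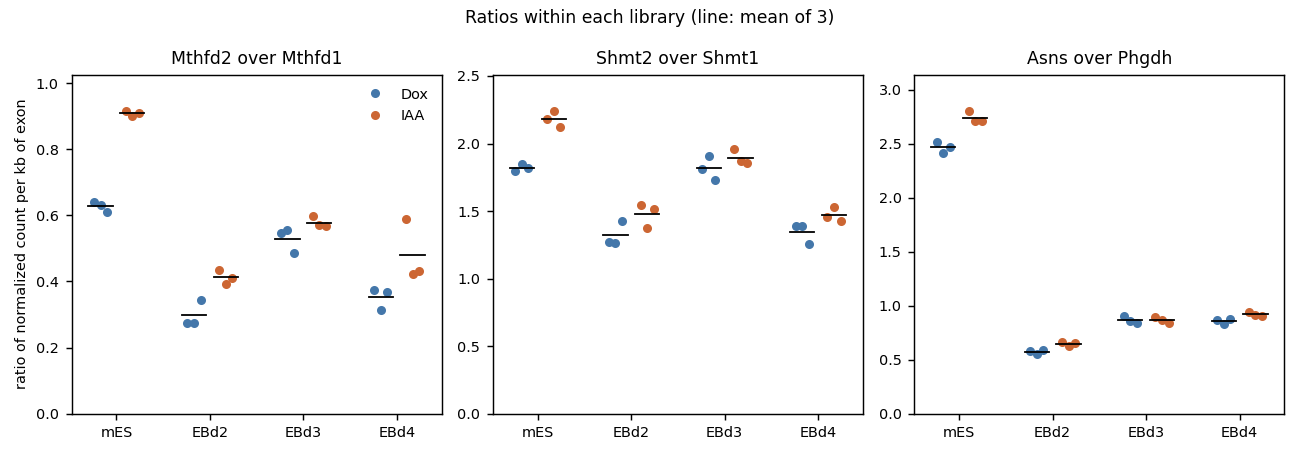
Ratio of normalized counts per kb of exon (vertical axes, from 0) in each library at the 4 stages, for Mthfd2 over Mthfd1, Shmt2 over Shmt1 and Asns over Phgdh; blue is Dox, orange is IAA, and lines are means of 3. Mthfd2 over Mthfd1 is higher with IAA at every stage, and Asns over Phgdh drops from 2.47 in mES Dox to 0.574 in EBd2 Dox.

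The regulators of the ATF4 axis, a list of 18 genes for the factors, kinases and feedback proteins of the amino acid and stress response, rose broadly with IAA in mES: 15 rose and Eif2s1, which codes for the phosphorylated subunit of eIF2, fell (-0.08 ± 0.03), where 17.3% of all genes rose and 20.1% fell. Atf5, a related factor, rose most clearly (1.79 ± 0.04, from 558 to 1940.3 normalized counts), and Atf4 itself rose by 0.71 ± 0.03, from 2682 to 4380.1. The median of the list was 0.48. In EBd2, 9 rose and 2 fell (Ppp1r15b and Eif2ak2), beside 13.4% and 16.7% of all genes, with Atf5 at 2.12 ± 0.05, the pseudokinase gene Trib3 at 0.93 ± 0.12 and Atf4 at 0.20 ± 0.05, and a median of 0.15.

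In EBd3, 3 genes of that list rose (Atf5, Eif2ak1 and Trib3) and the other 15 did not pass (4.22% of all genes rose), with a median of -0.01. In EBd4, 5 rose (Ddit3, Atf5, Chac1, Ppp1r15a and Trib3) and the other 13 did not pass (4.69% of all genes rose), with a median of 0.10. Atf5 was called in all 4 stages, at 0.78 ± 0.09 in EBd3 and 0.54 ± 0.11 in EBd4, where neither Asns nor a serine synthesis gene was.

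The other genes of the folate and glycine cycle, a list of 23, were mixed. In mES 7 of 21 tested rose and 6 fell, beside 17.3% and 20.1% of all genes. Mtrr rose by 0.39 ± 0.05, and the glycine decarboxylase gene Gldc fell by 0.49 ± 0.03 and the folate receptor gene Folr1 by 1.08 ± 0.08. In EBd2 8 of 23 rose and 5 fell, beside 13.4% and 16.7% of all genes, with Gldc up by 0.27 ± 0.04, Mtfmt up by 0.47 ± 0.09, Amt down (-0.62 ± 0.06) and Folr1 down (-1.32 ± 0.10). Of 22 tested in EBd3, Dld rose and Folr1 and Mthfd2l fell, beside 4.22% and 6.32% of all genes, and of 22 in EBd4, Aldh1l1, the cytosolic relative of Aldh1l2, fell alone (-0.88 ± 0.19), beside 5.57%. The list medians of -0.02, 0.07, 0.06 and -0.12 in the 4 stages stood beside -0.01, -0.04, -0.01 and -0.01 for all genes.

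The methionine cycle and transsulfuration list had 5 rises and 2 falls among 9 genes in mES, where Ahcy, the adenosylhomocysteine hydrolase gene, rose by 0.53 ± 0.02 and Cbs fell by 0.86 ± 0.06. In EBd2 Ahcy rose and Cth and Ahcyl2 fell, in EBd3 Ahcy rose and Cth, Mat1a and Cbs fell, and in EBd4 Ahcyl2 and Ahcyl1 rose and Cbs fell. Of the 11 genes of de novo purine synthesis, which uses formyl-tetrahydrofolate, 7 fell in mES, 2 in EBd2, 2 in EBd3 and 4 in EBd4. The shares of all genes that fell were 20.1%, 16.7%, 6.32% and 5.57% in these stages, and those that rose 17.3%, 13.4%, 4.22% and 4.69%, which stand beside the counts of both lists. Impdh2, on the branch to guanine nucleotides, rose in every stage (0.45 ± 0.02, 0.43 ± 0.05, 0.19 ± 0.04 and 0.23 ± 0.04), joined in mES by Pfas. Paics (-0.18 ± 0.02) and Atic (-0.25 ± 0.03) were among the 7 that fell in mES.

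The list of other non-essential amino acid genes had 5 rises and 5 falls among 17 genes in mES, 5 and 8 of 19 in EBd2, 1 and 5 of 18 in EBd3 and 2 and 5 of 18 in EBd4. Of all genes, the shares that rose were 17.3%, 13.4%, 4.22% and 4.69% in the 4 stages, and the shares that fell 20.1%, 16.7%, 6.32% and 5.57%. The proline synthesis genes Pycr1 (0.70 ± 0.07) and Aldh18a1 (0.65 ± 0.06) rose in EBd2 by amounts near that of Asns, and the branched-chain aminotransferase gene Bcat1 fell there (-0.83 ± 0.05). The asparaginase gene Aspg fell in mES, from 96.5 to 21.1 normalized counts (-2.14 ± 0.16). Glud1 rose in EBd4 (0.31 ± 0.05).

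**Figure D5:**
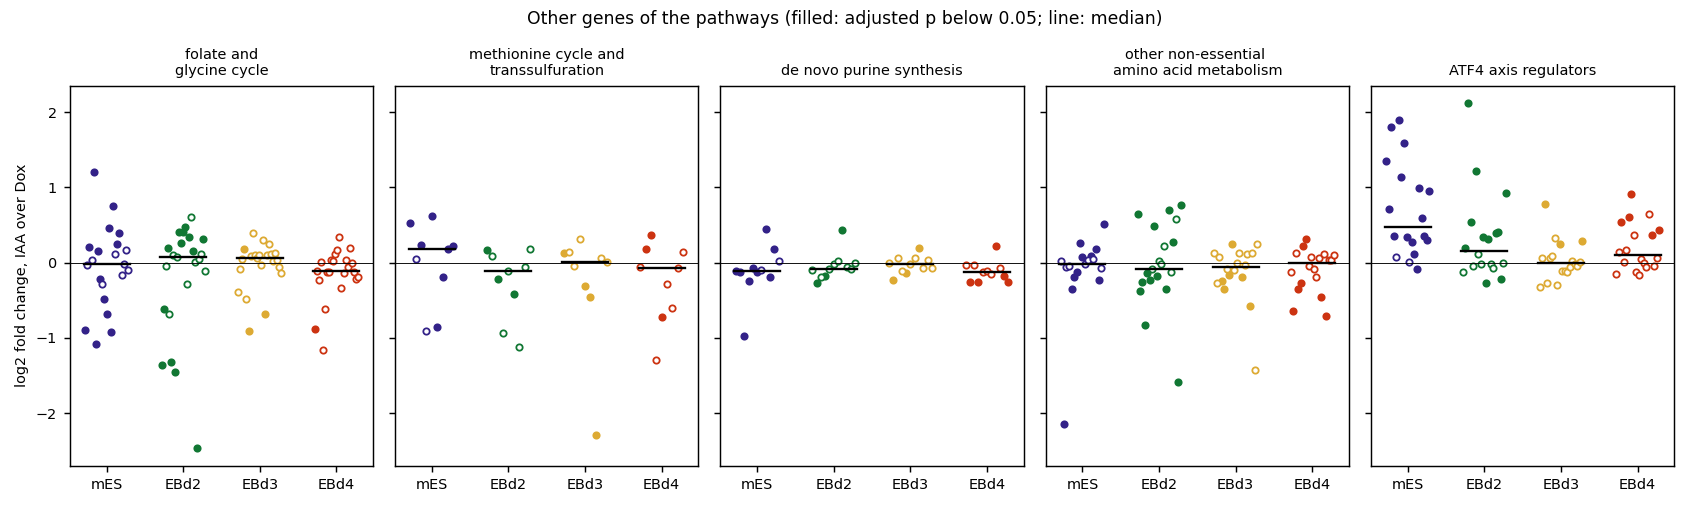
Log2 fold change of IAA over Dox (vertical axis) for the tested genes of 5 related lists at the 4 stages; filled points have an adjusted p below 0.05 and lines are list medians. The ATF4 axis regulators have the highest median in mES (0.48), and the other lists spread to both sides of 0 in each stage.

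Over the 8 group means, the genes most like Asns among 9421 with a mean of at least 100 were Tmem134 (Pearson r = 0.998), Slc6a6, the taurine transporter gene (0.997), and Mtmr12 (0.994). Those most like Phgdh were Wfs1 (0.953), CYTB, the mitochondrial cytochrome b gene (0.945), and Cnpy2 (0.943). These are descriptions over 8 points. For Asns they rest largely on the gap between mES and EB.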

How the data were processed

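Per the submitters' processing notes, STAR 2.5.3a, featureCounts 1.5.2 and DESeq2 were used with the mm10 genome. The authors deposited 4 tables, 1 per stage, of 35742 genes. The deposited signal values are counts divided by 1 size factor per library: 100% of positive values were whole reads within 1e-06 once multiplied by a factor, and the deposited mean equals that of all 24 libraries, so the tables can be compared. Log2 fold changes and adjusted p-values that the authors deposited were used only where named. IDs without a symbol held 1.12% to 1.32% of reads.

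The edgeR test was foreseen for raw counts. As the values are normalized, log2(value + 1) was fitted with limma 3.58.1 (trend), leaving out genes whose mean was below 1, and p was adjusted by Benjamini-Hochberg with a threshold of 0.05. IAA against Dox was fitted per stage, the steps between stages on the 12 Dox libraries, and differences of effects on all 24. Adjustment was within each of the 11 comparisons. On simulated data, limma recovered 48 to 80 of 100 genes changed 1.5-fold and 71 to 90 of 100 changed 2-fold. Per comparison, 0 to 22 unchanged genes were called. The changed genes were drawn from all levels above a low floor, so these numbers do not describe the 10 genes. They were also far fewer than the 1589 to 14190 genes called per comparison in the data, and the adjustment is stricter where few genes change. The numbers therefore do not give the recovery or the false calls of the fits to the data. Alternatives were a constant of 0.25, no filter, TMM scaling, edgeR 4.0.16 and DESeq2 1.42.0 on recovered reads, a replicate block, a joint fit, and leaving out each library. The 10 genes and the lists were chosen with earlier results of these data known. By rule all 10 genes are named, and of each other list up to 2 genes each way with the smallest adjusted p per stage; where a count was small, the others were named after their values were seen, as was Atf4 in EBd2. Values of a few list genes are left out and not reported here. Of the list genes only Pycr3 was not found by symbol. Positions and exonic lengths are from GENCODE M21 (mm10), promoter windows from RefSeq (GRCm38.p6).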

Additional observations from a re-analysis of the deposited data

Results flagged for a closer look

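The results picked out here are IAA effects of 1 gene that differed between stages by limma's interaction test at an adjusted p below 0.05, given as differences of log2 fold changes. The effect in EBd2 exceeded that in mES for Phgdh (0.44), Psat1 (0.58), Psph (0.41), Mthfd1 (0.14), Mthfd1l (0.33), Aldh1l2 (1.09) and Asns (0.47). For Aldh1l2 this was a change of direction, from a fall in mES to a rise in EBd2. The effect in EBd3 was below that in mES for Shmt2 (-0.26) and Mthfd2 (-0.35), and the effect in EBd4 was below it for Shmt1 (-0.23) and Shmt2 (-0.36).

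The effect in EBd3 was below that in EBd2 for Phgdh (-0.48), Psat1 (-0.58), Psph (-0.45), Shmt2 (-0.24), Mthfd2 (-0.44), Mthfd1l (-0.34), Aldh1l2 (-1.01) and Asns (-0.66). This comparison was chosen after the values of both stages were seen, and it shares the EBd2 libraries with the difference between EBd2 and mES.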

How the results depend on the processing

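With DESeq2, 5201 genes were called for IAA in mES, 4407 in EBd2 and 1406 in EBd3, against 7821, 6638 and 2245 with limma. The 2 falls among the 10 genes in EBd3 became 1 with a constant of 0.25, TMM scaling, DESeq2 or the joint fit, which called 3425 genes in EBd4 instead of 2173. With 1 library left out, falls among the 10 genes numbered 1 to 2 in EBd3 and 1 to 4 in EBd4, and genes called in all 1202 to 2613 and 776 to 2039. Of the 10 genes, those with a lower effect than in mES numbered 1 to 3 in EBd3 and 1 to 6 in EBd4. Genes called in all for these differences, either way, numbered 2139 to 2489 and 3042 to 3778. Same-numbered libraries did not deviate together (r from 0.00999 to 0.0319 in mES, -0.0538 to 0.0526 in EBd2, -0.0300 to 0.107 in EBd3 and -0.218 to 0.00356 in EBd4), so the numbers were not taken as pairs. The replicate block lowered the EBd4 calls to 1365 and cost Aldh1l2 its EBd4 call (adjusted p = 0.071), while Asns gained the call of a lower effect than in mES in EBd3 (0.027) and in EBd4 (0.038). Of 1630 gene values recomputed, 45 lost and 13 gained a call and 39 changed sign, 0 of them past the threshold. Sign changes were Shmt1 in mES (edgeR 0.0033), Mthfd1 in EBd2 (TMM 0.018, edgeR 0.028), Shmt1 from EBd3 to EBd4 (TMM -0.011), and, for differences from mES, Shmt2 in EBd2 (TMM 0.0043, edgeR 0.0020), Mthfd1l in EBd3 (TMM 0.0065, edgeR 0.0062) and Mthfd1l in EBd4 (TMM 0.010, edgeR 0.0099). With 1 library left out they were Psph (-0.0040 to 0.042) and Shmt1 (-0.040 to 0.015) in mES, Mthfd1 in EBd2 (-0.028 to 0.0092), Mthfd2 in EBd3 (-0.0053 to 0.072), Phgdh in EBd4 (-0.043 to 0.027) and Shmt1 from EBd3 to EBd4 (-0.012 to 0.046). Among differences from mES they were Shmt2 in EBd2 (-0.049 to 0.0030), Psat1 (-0.018 to 0.023), Mthfd1l (-0.043 to 0.023) and Aldh1l2 (-0.048 to 0.18) in EBd3, and Mthfd1l in EBd4 (-0.051 to 0.023). The cause of these changes was not tested. Counting error is relatively largest for Aldh1l2, which had the fewest reads of the 10 genes. Leaving out each library for the ratios was added after seeing the data.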

Other observations

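The related lists along the Dox time course had the following counts. From mES to EBd2, where 9 of the 10 enzymes fell, 13 of the 23 other folate and glycine genes rose and 6 fell, with a median of 0.35, beside 35.0% and 29.1% of all genes. The methionine cycle list had 6 rises and 4 falls among 10 genes, the purine list 6 and 4 of 11, the other non-essential amino acid list 10 and 8 of 18, and the ATF4 axis list 8 and 5 of 18. Chosen after their values were seen, Pycr1 (-1.51 ± 0.06) and Aldh18a1 (-1.19 ± 0.06), both of proline synthesis, fell with Psat1 and Psph in this step, and Ddit4, a stress-induced inhibitor of mTORC1, rose most on the ATF4 axis list (3.58 ± 0.10). From EBd3 to EBd4, 10 of the 23 folate and glycine genes and 8 of the 18 ATF4 axis genes fell, and 2 and 1 rose, beside 17.6% that fell and 16.1% that rose among all genes.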
